A study of Sus scrofa with 8 samples.

Results

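The transcriptome described here is that of the olfactory epithelium of wild-type newborn piglets, the sheet of tissue in the nose that detects odours. It comprises 4 of the 8 libraries of the study, those of wild-type piglets 5, 9, 12 and 23, and the rows of its count table that are pig genes, 25880 in all. The other 4 libraries come from CFTR-null piglets and were left aside, so that no genotype contrast is given. The study as a whole asks what goes wrong in the olfactory tissue in cystic fibrosis, and these 4 animals are its control state. They carry the wild-type genotype, are labelled newborn, and received no treatment that the labels mention. Their tissue was frozen after dissection, its RNA was purified on columns with DNase, and libraries were made with the Illumina TruSeq RNA kit. The labels give no sex, litter or sequencing batch, and they name the tissue but no sorting of cells. A dissected sheet can therefore hold the tissue beneath the epithelium as well.

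The olfactory epithelium is layered. Olfactory sensory neurons send cilia into the mucus, where odorant receptors act through a G protein and adenylyl cyclase to open a cyclic nucleotide-gated channel. These neurons are replaced through life from globose basal cells, which divide, and from horizontal basal cells, which form a reserve. Sustentacular cells surround the neurons and are rich in enzymes that break down foreign chemicals. Bowman glands lie beneath, with their ducts crossing the epithelium, and secrete the mucus and its proteins.

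Levels are given on a pair of scales. CPM is a gene's read count divided by the library's total over pig genes, as counts per 1000000. TPM also divides by the exon length the authors deposited for each gene, so that it is the scale on which genes are compared with each other. Values are mean ± SD over the 4 piglets (n = 4) unless each piglet is listed, and lists of 4 values run in the order piglets 5, 9, 12 and 23. With 1 group there was no test, and differences between piglets are set against the spread only. Depth was 30836904 to 42281883 counts per library, and 19931 to 20389 genes had a read. The Pearson correlation of log2 CPM between libraries was 0.969 to 0.987 across 16050 genes, which are not independent replicates.

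The tissue expressed many genes, and no single nuclear gene took a large share of the reads. Genes at 1 TPM or more in every library numbered 14990, while 9897 reached 10 TPM, 1383 reached 100 TPM and 65 reached 1000 TPM. No read of 4225 genes was found in any library. The 10 genes with the highest mean CPM took 5.97%, 5.72%, 6.19% and 6.11% of the reads of the 4 libraries, a range that is narrow beside the share itself. The 100 highest took 17.6% ± 0.693 and the 1000 highest 45.4% ± 0.856. The number of genes that together held 50% of the reads was 1326, 1257, 1225 and 1217, so piglet 5 had the flattest distribution. After scaling by length the same share was held by 613 ± 27.2 genes, because short, abundant transcripts gain weight.

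**Figure D1:**
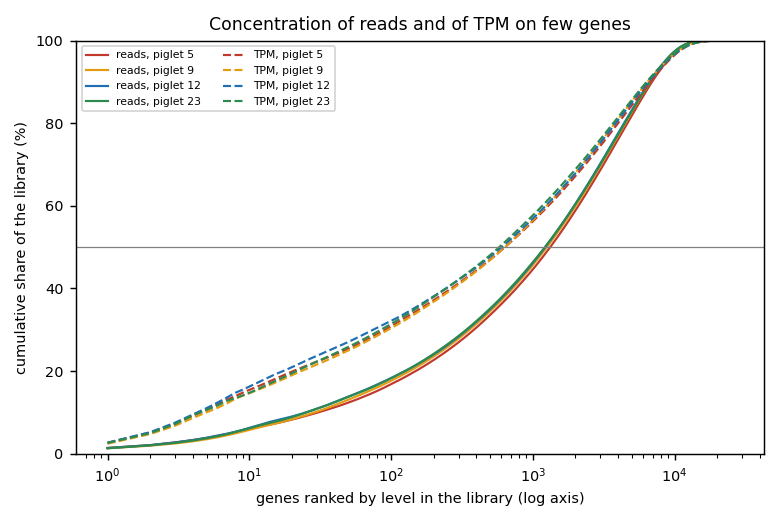
Cumulative share of each library (vertical axis, percent) held by its most abundant genes (horizontal axis, rank on a log scale), for reads (solid lines) and for length-scaled TPM (dashed lines) in the 4 wild-type piglets. The grey line marks 50%, which the read curves cross between 1217 and 1326 genes and the TPM curves between 580 and 636 genes.

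The most abundant transcripts were those of the mitochondrial genome, which encodes subunits of the respiratory chain and the ATP synthase. COX1, the catalytic subunit of cytochrome c oxidase (MT, 6511 to 8055, plus strand), stood first on the CPM scale with 13790.0, 12859, 13367 and 12902 CPM. These values lie within a few percent of each other, with no piglet set apart. COX3, another subunit of the same enzyme, was first on the TPM scale with 24971, 23486, 26564 and 25776 TPM. Mitochondrially encoded genes filled 8 of the 25 highest places by CPM and 11 of the 25 by TPM. The mitochondrial genome held 4.97%, 4.62%, 5.15% and 4.87% of the reads, and 14.8% ± 0.763 of TPM.

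Behind them came a set of nuclear genes in which neuronal, detoxifying and general cell functions are mixed. On the CPM scale these included CYP2A19 (4034 ± 599 CPM), a cytochrome P450 monooxygenase, and GFY (2612 ± 708 CPM), which encodes the Golgi protein goofy of olfactory neurons. MAP1B (2539 ± 456 CPM), a microtubule-associated protein of growing axons, and FSTL5 and STOML3 of the mature neuron list were also among the first 25. The remainder of the CPM list held general genes such as ACTG1, a cytoskeletal actin, EIF4G2, a translation factor, and the chaperones HSP90AA1 and HSPA8. The membrane protein stomatin, STOM, also stood there, with 1122 ± 152 TPM.

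Scaling by length changed which genes led. Of the 25 highest, 14 were shared by the CPM and TPM lists (56%), and of the 100 highest, 47 were shared. The median exon length of the 100 highest was 4501 bases by CPM and 1351 bases by TPM. MAP1B, with 12348 exon bases, ranked 14 by CPM and 156 by TPM. TUBA1B, an alpha-tubulin, ranked 7 by CPM and 38 by TPM, and its model of 8613 bases also covers the neighbouring TUBA1A, so its value belongs to both. GNG13, a G protein gamma subunit of mature neurons, went the other way, from rank 794 by CPM to rank 22 by TPM. Its model has only 204 bases, and a level scaled by so short a model is less certain than that of a longer gene.

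The TPM list held small, abundant proteins, of which FTH1 and PTMA were among the 25 highest by CPM as well. FTH1, named by position, and FTL encode the subunits of ferritin, the iron store, at 5547 ± 306 and 2846 ± 155 TPM. PTMA, encoding prothymosin, reached 4398 ± 555 TPM and TMSB4X, which binds actin monomers, 3888 ± 395 TPM. TPT1, a translationally controlled protein, reached 3717 ± 505 TPM and UBB, a ubiquitin gene, 3680 ± 252 TPM. CBR2, a carbonyl reductase, closed this group with 2581, 2250, 3322 and 2662 TPM. The ranges of these genes were narrow, and the widest, that of CBR2, put piglet 12 at 1.45 times piglet 9 on the CPM scale. The most abundant nuclear genes with a known tie to olfactory tissue on this scale were GFY, GNG13, CBR2 and CYP2A19.

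**Figure D2:**
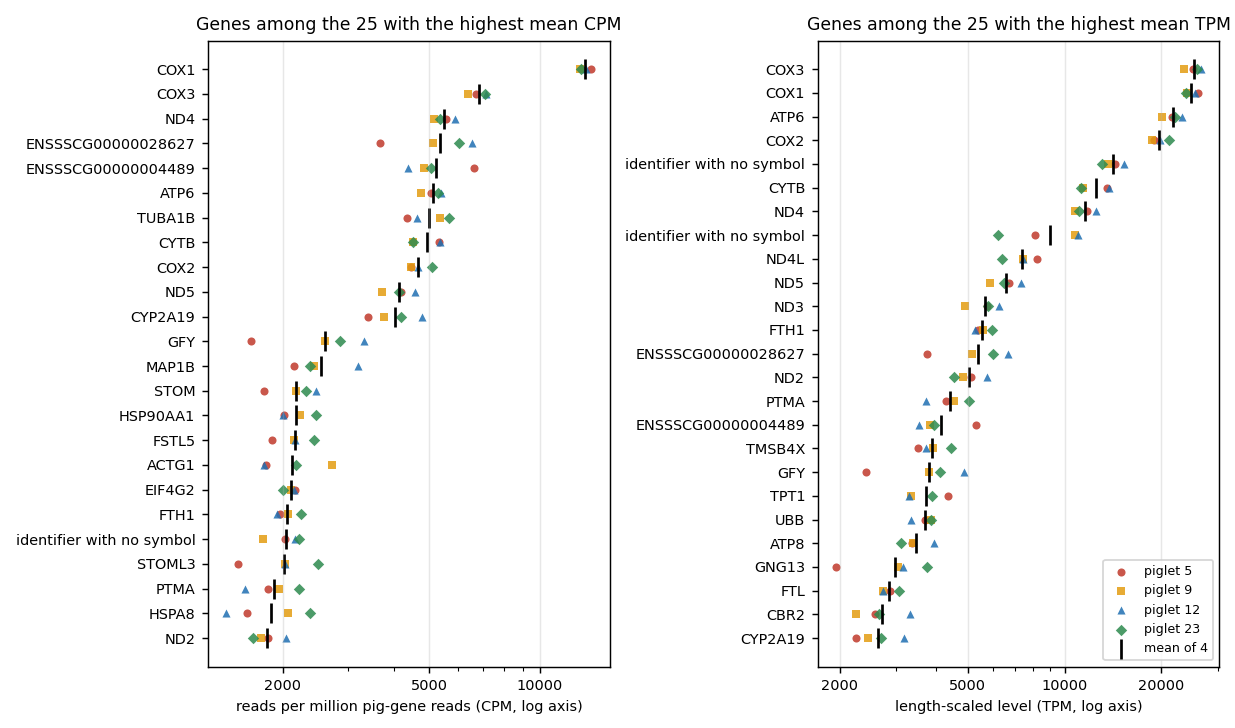
Genes among the 25 with the highest mean CPM (left) and mean TPM (right), with 1 symbol per piglet on a log axis and a bar at the mean of 4. Mitochondrially encoded genes lead both panels, and for GFY the value of piglet 5 (2412 TPM) lies below those of the other piglets (3781 to 4888 TPM).

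Some abundant transcripts carried no symbol. Identifiers without one held 5.05% ± 0.135 of reads and 10.7% ± 0.542 of TPM, with 3 among the 25 highest by CPM and 4 by TPM. ENSSSCG00000028627 (chromosome 6, 49069639 to 49087602, build not stated) had 3687, 5129, 6545 and 6036 CPM, lowest in piglet 5. It lies next to CYP2A19 (chromosome 6, 49053993 to 49064190), and at its place the RefSeq table of assembly Sscrofa11.1 holds a gene without a proper symbol, LOC100737508. ENSSSCG00000004489 (chromosome 1, 92421230 to 92472785) had 6628, 4844, 4387 and 5052 CPM, highest in piglet 5.

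The labelled tissue was checked against 24 marker lists of cells that a nasal dissection could hold, with 290 of 322 distinct markers measured. For each list the TPM of its measured members was summed. The 5 lists with the highest sums were those of mature olfactory sensory neurons (13793 ± 2850.2 TPM), immature olfactory sensory neurons (7858 ± 795), Bowman glands (4794 ± 1093), sustentacular cells (4722 ± 615) and fibroblasts and stroma (2239 ± 950.0). By summed TPM, mature neurons stood above immature neurons in 4 of 4 piglets, with ranges that did not overlap, and immature neurons stood above Bowman glands likewise. By share of reads the mature list held 0.903% to 1.43% and the immature list 0.748% to 0.931%, so these ranges overlapped. Bowman glands stood above sustentacular cells in only 2 of 4 piglets, so those neighbours cannot be ordered by summed TPM. By share of reads the sustentacular list was higher, with 0.544% to 0.706% against 0.158% to 0.318% for Bowman glands. The sums depend on how many markers each list holds and how strong they are, so they are not shares of cells. In bulk tissue, fewer cells of a type and less RNA per cell cannot be told apart.

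At the low end were lymphocytes (12.9 ± 1.14 TPM), adipocytes (15.0 ± 6.71), neutrophils and mast cells (48.1 ± 19.9), and tuft or microvillous cells (49.0 ± 7.84). KIT, which the neuronal precursor list also holds, made up 39.2% of the neutrophil and mast cell sum. Read member by member, the median TPM was 283 in the mature neuron list, 216 in the sustentacular list and 190 in the immature neuron list. In the Bowman gland list it was 41.3 TPM. The same median over all genes with a read was 9.72 TPM. The median was 0.272 TPM in the lymphocyte list and 0.328 TPM in the skeletal muscle list. A few sums rest on 1 gene: HBB made up 98.0% of the red blood cell sum, ACTA1 94.8% of skeletal muscle, OLIG2 87.7% of the central nervous system, CYP2A19 55.9% of sustentacular cells and GPX6 50.3% of Bowman glands. Markers such as OMP, KRT14, CYP2G1, S100B and TRPC2 met neither naming rule and were not analysed here. At the positions of KRT5 and SOX2 the table has rows without a symbol, which did not meet the rule and were not taken for these genes.

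**Figure D3:**
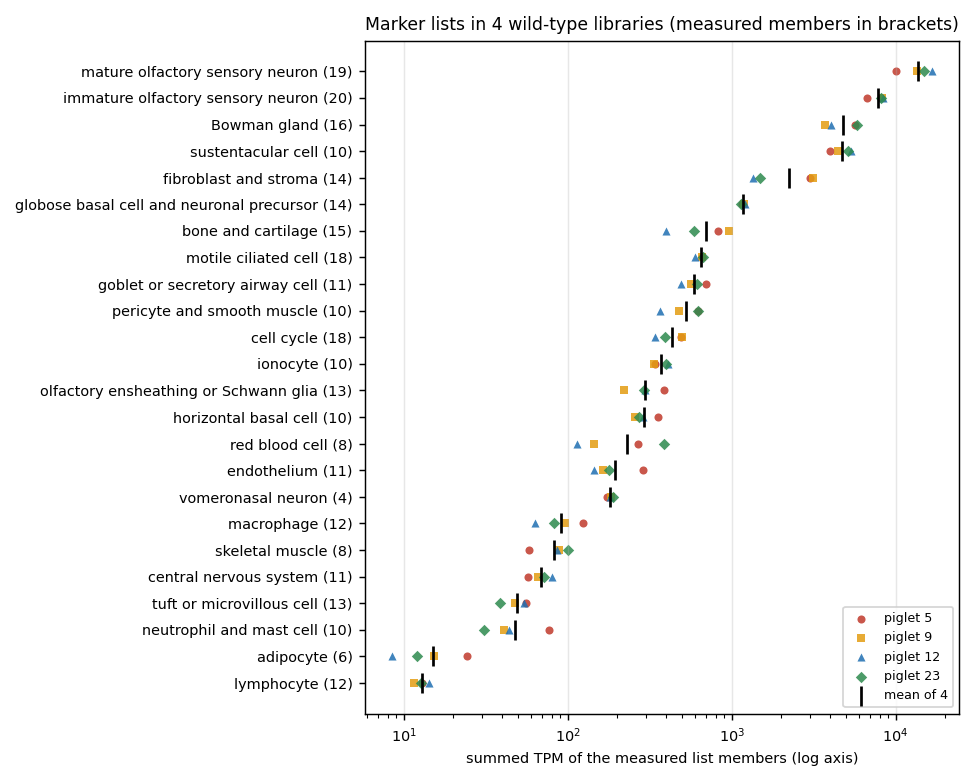
Summed TPM of the measured members of 24 marker lists (log axis), with 1 symbol per piglet, a bar at the mean and the number of measured members in brackets. The neuronal, Bowman gland and sustentacular lists stand at the top, and the lymphocyte and adipocyte lists at the bottom.

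Mature olfactory sensory neurons had the highest summed level of the 24 lists. All 19 measured members of their list were at 10 TPM or more in every library, and the list summed to 9992, 13596, 16765 and 14820 TPM, lowest in piglet 5 and highest in piglet 12. GFY (chromosome 6, 54507149 to 54510819), whose protein serves odorant responses in these neurons, led with 2412, 3781, 4888 and 4106 TPM. GNG13 had 1951, 3044, 3139 and 3739 TPM. STOML3, a stomatin-like protein of olfactory cilia that was named by position, had 1156, 1532, 1560 and 1862 TPM. In all 3 genes piglet 5 was the lowest, while the highest was piglet 12 for GFY and piglet 23 for the others. FSTL5, a secreted follistatin-like protein, was steadier at 1193 ± 116 TPM. S100A5, a calcium-binding protein of olfactory neurons, had 885, 900, 1406 and 731 TPM, so that piglet 12 stood above the rest.

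The odour transduction chain was represented from the G protein to the channel. GNAL, which encodes the stimulatory G protein alpha subunit of olfactory neurons, stood at 588 ± 142 TPM. ADCY3, the adenylyl cyclase of the cilium, had 169, 226, 308 and 252 TPM, with the caution that its model also covers PTRHD1. The channel subunits CNGA2 and CNGA4 had 292 ± 67.3 and 188 ± 47.5 TPM, and CNGB1, the third subunit, named by position, 63.8 ± 25.1 TPM. In CNGA4 piglet 5 had 118 TPM against 203 to 221 TPM in the others. ANO2, the calcium-activated chloride channel that amplifies the response, had 44.9 TPM, but its model spans the gene of von Willebrand factor, an endothelial protein, and its value cannot be assigned to either. RTP1 and RTP2, which carry odorant receptors to the cell surface, had 326 ± 52.7 and 283 ± 60.1 TPM. KIRREL2, an adhesion protein that sorts olfactory axons, had 606, 730, 1341 and 436 TPM, highest in piglet 12. GNAL, ADCY3, CNGB1, ANO2, RTP1, RTP2 and KIRREL2 were chosen after their values were seen.

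Olfactory receptors, of which each mature neuron is known to express only 1 type, were each at a low level in the mixed tissue. The 71 receptor genes with a symbol summed to 131, 242, 302 and 227 TPM, and the order of the piglets was that of the mature neuron list, except that piglets 9 and 23 changed places. Of the 71, 32 were at 1 TPM or more in every library, 2 at 10 TPM or more, and 1 had no read. OR13G1 had the highest level, with 15.1, 31.8, 48.1 and 19.7 TPM from 192, 313, 622 and 270 reads. OR10K2 followed with 18.6 ± 6.54 TPM, and OR5AP2 and OR4E1 with 9.63 and 8.59 TPM. The pig genome is known to hold many more receptor genes, so the sum covers part of the family. Other chemoreceptors were lower still as a group, with a sum of 33.2 ± 2.98 TPM, and 6 of 29 genes had no read. TAAR2, a trace amine receptor, had 5.01 ± 1.98 TPM and TAAR9 2.87 ± 1.79 TPM. TAS1R3, a subunit of the sweet and savoury taste receptors, was the highest of the 29 at 14.0 ± 0.680 TPM, above OR5AP2 and OR4E1.

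Immature neurons, which extend axons towards the brain, had the next highest sum. All 20 list members were measured, and 19 were at 10 TPM or more in every library. The list summed to 6675, 8222, 8384 and 8152 TPM, with piglet 5 below 3 piglets that lay close together. TUBB3, a neuronal tubulin, had 1037, 1266, 1298 and 1165 TPM, and STMN2, a microtubule regulator of growth cones, 1091, 1054, 1256 and 1149 TPM. GNG8, a G protein gamma subunit of immature olfactory neurons, had 1035 ± 164 TPM on a model of only 213 bases. UCHL1, a neuronal ubiquitin hydrolase, had 646, 973, 948 and 959 TPM, and DPYSL3, a protein of growth cones, 686 ± 78.0 TPM. GAP43, the growth-associated protein that classically marks this stage, had 162, 217, 189 and 237 TPM, and DCX, doublecortin, had 48.9, 32.0, 78.8 and 29.8 TPM. GAP43 and DCX were chosen after their values were seen.

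The neuronal precursor list had the steadiest sum of the lists with a sum over 1000 TPM. The globose basal cell and precursor list summed to 1159, 1197, 1203 and 1146 TPM, a coefficient of variation of 2.38% across piglets. All 14 members were at 1 TPM or more in every library and 13 at 10 TPM or more. NHLH1, a bHLH factor of late precursors, had 315, 347, 447 and 307 TPM, and HES6, a bHLH factor that favours neuronal differentiation, 244 ± 24.9 TPM. INSM1, a zinc finger factor of dividing neuronal precursors named by position, had 116 ± 16.0 TPM, and SOX11, a factor of immature neural cells, 79.2 ± 6.999 TPM. The other members named here were lower. NEUROG1 had 53.6, 33.9, 35.3 and 39.3 TPM and NEUROD1 24.8 ± 2.87 TPM. KIT, which is also in the neutrophil and mast cell list, had 18.8 ± 6.22 TPM. NEUROG1 and NEUROD1 were chosen after their values were seen.

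**Figure D4:**
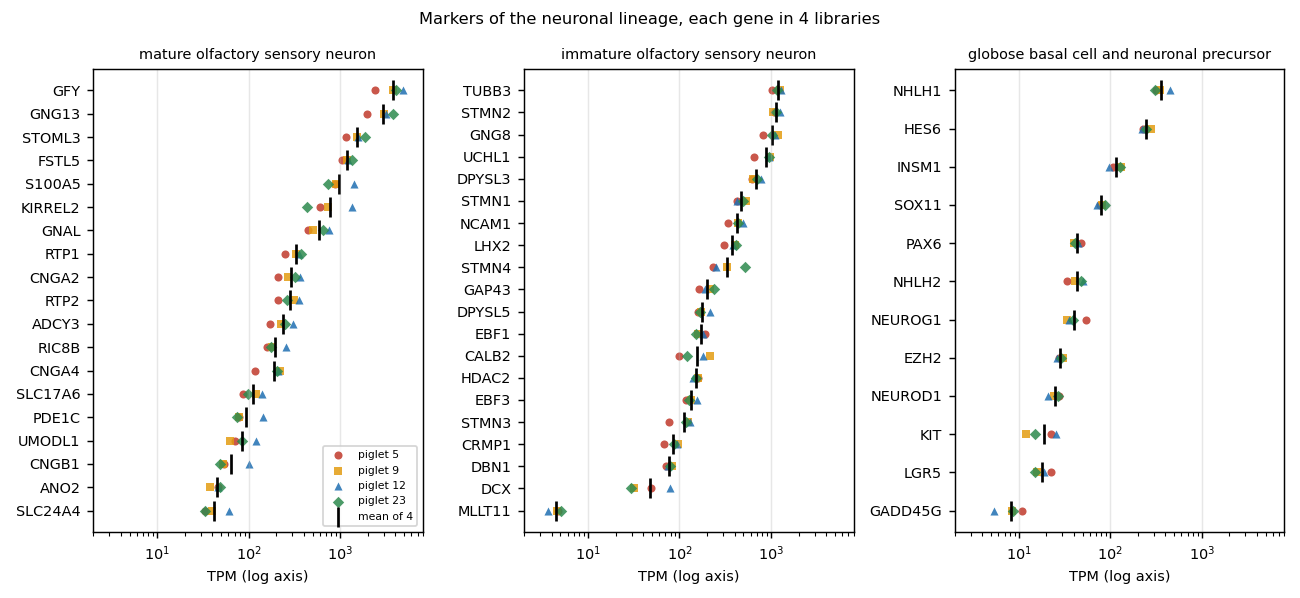
TPM of measured markers of mature neurons, immature neurons and globose basal cells or precursors (log axes with the same limits), with 1 symbol per piglet and a bar at the mean. Levels fall from the mature list (median member 283 TPM) to the immature list (190 TPM) and the precursor list (42.0 TPM), and piglet 5 is the lowest in many mature markers.

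Genes of dividing cells were expressed in every library. Of 18 measured genes of the cell cycle, all were at 1 TPM or more in every library and 12 at 10 TPM or more, with sums of 490, 498, 343 and 395 TPM. Piglets 5 and 9 stood above piglets 12 and 23. AURKB, a mitotic kinase, had 53.5 ± 3.54 TPM, and the replication helicase subunits MCM6, MCM5 and MCM7 had 51.0 ± 9.82, 43.8 ± 10.5 and 42.7 ± 2.61 TPM, with the model of MCM7 also covering COPS6. TYMS, which makes thymidylate for DNA synthesis, varied most among these, with 55.0, 78.5, 22.3 and 27.2 TPM. MKI67, a marker of cycling cells named by position, had 25.8, 16.5, 17.5 and 15.8 TPM, highest in piglet 5, and was chosen after its values were seen. The list does not say which cell type divides.

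Horizontal basal cells, the flat reserve cells on the basal lamina, were judged without their classic keratins KRT5 and KRT14. Of 10 measured members, all were at 1 TPM or more in every library, and the list summed to 293 ± 42.2 TPM. BCAM, a laminin receptor, had 69.7 ± 1.27 TPM, COL17A1, the hemidesmosomal collagen, 53.5 ± 9.13 TPM, and LAMB3, a laminin chain, 38.7 ± 5.69 TPM. TP63, the transcription factor that keeps these cells quiescent, had 25.05, 14.7, 17.6 and 19.6 TPM, highest in piglet 5. KRT15, a basal keratin, had 27.2, 10.7, 5.16 and 3.37 TPM, and again piglet 5 was the highest. TP63 was chosen after its values were seen.

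The list of sustentacular cells was drawn up largely from enzymes of foreign-compound metabolism, so their lead in it was partly set by that choice. Of 10 measured members, 9 were at 10 TPM or more in every library, and the list summed to 3973, 4483, 5329 and 5104 TPM, lowest in piglet 5 as in the neuronal lists. CYP2A19 had 2244, 2451, 3176 and 2694 TPM. CYP2F1, a P450 of airway tissue, had 513, 504, 645 and 915 TPM, highest in piglet 23. CYP1A2, a P450 known from the liver and inducible by aromatic compounds, had 225, 376, 654 and 265 TPM, highest in piglet 12. KRT8 and KRT18, partner keratins of simple epithelia, had 518, 636, 399 and 650 TPM and 298, 396, 212 and 435 TPM. Unlike the list sum, both were lowest in piglet 12. CYP2A19 and its unnamed neighbour on chromosome 6 shared piglet 5 as the lowest library and piglet 12 as the highest.

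The wider set of detoxifying enzymes was led by the same few genes. The 31 cytochrome P450 genes with a symbol summed to 4287 ± 618 TPM, of which CYP2A19 made up 61.6%. CYP4V2, a fatty acid hydroxylase, had 159 ± 23.3 TPM, and CYP4B1, a P450 of lung and nose, had 221, 181, 107 and 84.9 TPM. Unlike CYP2A19, CYP4B1 was highest in piglet 5. The 63 genes of conjugation and of aldehyde or alcohol oxidation summed to 6677 ± 365 TPM, with CBR2 (chromosome 12, 973786 to 976635) at 40.5% of it. EPHX1, the microsomal epoxide hydrolase, had 786 ± 64.8 TPM, AOX2, an aldehyde oxidase named by position, 573 ± 121 TPM, ADH5, the glutathione-dependent formaldehyde dehydrogenase, 268 ± 14.8 TPM, and FMO2, a flavin monooxygenase, 215 ± 16.2 TPM. Antioxidant genes were also high. SOD1, the cytosolic superoxide dismutase, had 1340.4, 1349, 1361 and 1586 TPM, and PRDX6, a peroxiredoxin with lipid substrates, had 691 ± 168 TPM.

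Bowman glands and the secreted proteins of the mucus were represented by a few strong genes. The coefficient of variation of the gland list was 22.8%, close to the 20.7% of the mature neuron list, and that of the sustentacular list was 13.0%. It was 44.8% for the BPI fold family and 41.3% for secreted defence proteins, which share BPIFA1 and BPIFB1. The gland list summed to 5628, 3704, 4009 and 5837 TPM, high in piglets 5 and 23 and low in piglets 9 and 12. GPX6, a secreted glutathione peroxidase known from this gland (chromosome 7, 22256753 to 22267979), had 1994, 1755, 2759 and 3145 TPM. BPIFB4, a member of the lipid-binding BPI fold family, had 1329.5, 869, 670 and 1622 TPM. BPIFA1, a surfactant-like defence protein of airway secretions also known as SPLUNC1, had 1170, 478, 72.5 and 331 TPM. Its highest value was in piglet 5 and its lowest in piglet 12, and without piglet 5 its mean was 294 TPM in place of 513 TPM. BPIFB3 had 597, 219, 243 and 380 TPM, and BPIFB6, another member, 181, 121, 72.1 and 248 TPM. AQP5, a water channel of gland cells, had 106, 150, 113 and 108 TPM, with piglet 9 above the rest.

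The BPI fold genes lay together. BPIFB6, BPIFB3, BPIFB4 and BPIFA1 occupy chromosome 17 between 36556406 and 36761653 in the file's coordinates, all on the plus strand. The 13 measured members of the family summed to 3365, 1750, 1104 and 2642 TPM, so that piglet 5 held 3.05 times the level of piglet 12. Secreted defence proteins as a group, which include BPIFA1, ranged likewise from 3341 TPM in piglet 5 to 1211 TPM in piglet 12. WFDC2, a protease inhibitor of airway epithelium, was the strongest of these with 1373, 1217, 711 and 999 TPM, ahead of BPIFA1, and C3, the central complement protein, came after these with 386, 189, 249 and 252 TPM. The classic gland products lysozyme (LYZ, 2.34 ± 1.71 TPM) and lactoferrin (LTF, 2.42 ± 1.13 TPM), named after their values were seen, were low in every library.

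Lipocalins, small carriers of hydrophobic molecules that include odorant-binding proteins, were led by LCN15 with 420, 222, 124 and 419 TPM, high in piglets 5 and 23 as the gland list was. LCN2, which traps bacterial siderophores, had 172, 157, 129 and 233 TPM. Its model of 5752 bases also covers the neighbouring C1H9orf16, so this value is uncertain. APOD, a lipid carrier, had 70.8 ± 36.8 TPM. The odorant-binding proteins were near the floor: SAL1, the salivary lipocalin of pigs, had 5.59 ± 2.55 TPM, and OBP, named by position, was counted 1, 52, 9 and 2 times. OBP was chosen after its values were seen.

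Mucins and goblet cell genes gave a mixed picture. MUC2, a gel-forming mucin best known from the gut, had 111, 180, 192 and 182 TPM and made up 71.3% of the mucin sum. MUC5B, the mucin of airway glands, had 74.2, 36.7, 27.9 and 33.2 TPM, and MUC5AC, the mucin of airway surface goblet cells, 24.3, 8.12, 9.29 and 6.81 TPM. Both were named by position and were highest in piglet 5, where MUC2 was lowest. The MUC2 model has only 2892 exon bases against 13739 for MUC5B, so its lead and its share in TPM are less certain. By reads MUC5B had the higher mean, 204 CPM against 166 CPM for MUC2, but it exceeded MUC2 in piglet 5 only. TFF3, a mucus-stabilising peptide, had 225 ± 40.9 TPM, and AGR2, a chaperone for mucins, 256, 134, 86.6 and 208 TPM. SCGB1A1, the secretoglobin of airway club cells, was counted 1 or 2 times per library, and FOXA3, a goblet cell factor, had 0.0260 TPM. Of 11 measured members of the goblet and secretory list, 7 were at 1 TPM or more in every library.

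Motile ciliated cells, which line the neighbouring respiratory epithelium, were measurable in all piglets. Of 18 members, 17 were at 1 TPM or more in every library, and the list summed to 661, 663, 600 and 673 TPM, a coefficient of variation of 5.09%. FOXJ1, the master regulator of motile cilia, had 97.6, 88.4, 53.1 and 83.0 TPM. CCDC39 and CCDC40, partners in assembling the inner arms of the axoneme, had 85.0 ± 5.88 and 64.6 ± 7.25 TPM, and RSPH4A, a radial spoke protein, 59.1 ± 5.43 TPM. Olfactory neurons also bear cilia and can express some of these genes. TPPP3, at 71.4 ± 3.74 TPM, has a model that also covers ZDHHC1.

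Ionocytes and tuft cells are rare cells of airway and olfactory epithelium. The ionocyte list summed to 341, 337, 411 and 397 TPM, and 8 of its 10 measured members were at 1 TPM or more in every library. ATP6V1B1 and ATP6V1C2, subunits of the vacuolar proton pump, carried most of it with 155 ± 20.7 and 130 ± 28.1 TPM. FOXI1, the transcription factor that defines ionocytes, had 28.6, 32.1, 29.4 and 31.9 TPM, which differ by less than most genes of this list, and ASCL3 had 14.2 ± 1.40 TPM on a model of 540 bases. The tuft or microvillous list was far lower, with ALOX5AP, which takes part in leukotriene synthesis and is also expressed by leukocytes, at 22.5 ± 5.42 TPM. AVIL, an actin bundler of tuft cells, had 6.42 ± 1.27 TPM. TRPM5, a cation channel of microvillous cells, had 1.88 ± 0.511 TPM, and POU2F3, the factor that specifies tuft cells, 1.84 ± 0.853 TPM. GNAT3, a taste G protein, was counted 1 time in piglet 23 and not at all in the other 3. TRPM5, POU2F3 and GNAT3 were chosen after their values were seen.

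Routes for chloride, bicarbonate and water were led by transporters. SLC4A11, a membrane protein of the bicarbonate transporter family, had 182, 182, 264 and 153 TPM. SLC12A2, the cotransporter NKCC1 that loads olfactory neurons with chloride, had 174, 157, 248 and 140.0 TPM. In both genes piglet 12 was the highest and piglet 23 the lowest. CFTR, the gene disrupted in the other 4 animals of the study, had 24.97, 14.8, 14.7 and 15.5 TPM, highest in piglet 5. On the TPM scale it ranked 8645 among 25880 genes, and it was taken up for its place in the study. Among water channels, AQP3, which also carries glycerol, had 543 ± 60.4 TPM, and AQP1, a channel of endothelium and stroma, had 537, 251, 255 and 253 TPM, with piglet 5 above 3 nearly equal values.

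Electrical and barrier genes followed. SCN9A, the sodium channel Nav1.7 that olfactory neurons need for signalling, had 120, 125, 176 and 121 TPM, and SCN3B, a sodium channel beta subunit named by position, 103 ± 20.3 TPM. KCNC4, a fast potassium channel, had 92.8, 154, 208 and 127 TPM, and KCNA5, named by position, 87.0, 147, 173 and 119 TPM. Both ordered the piglets alike, from 5 as the lowest to 12 as the highest. Of 95 potassium channel genes, 22 were at 10 TPM or more in every library and 6 had no read. Among tight junction genes, CLDN9 had 185 ± 31.4 TPM, CLDN3 157 ± 23.2 TPM and CLDN4 133 ± 10.9 TPM, and the gap junction protein GJA1 had 244, 107, 60.5 and 104 TPM.

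Transcription factors were spread over many genes and were steady as a group. The 223 genes of the homeobox, SOX, FOX, bHLH and related families summed to 7264, 7311, 7793 and 7592 TPM, a coefficient of variation of 3.32%. ATF5, a stress-related factor that takes part in the maturation of olfactory neurons, made up 20.8% of it with 1036, 1533, 1810.4 and 1861 TPM. Its lowest value was in piglet 5, as in the mature neuron list. LHX2, a LIM homeobox factor needed for olfactory neuron development, had 310, 402, 389 and 418 TPM. The EBF factors, which act on many olfactory neuron genes, followed: EBF4 had 278 ± 59.9 TPM and EBF2 246 ± 34.5 TPM. Of the 223 factors, 150 were at 1 TPM or more in every library, 97 at 10 TPM or more, and 11 had no read.

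General cell functions made up much of the TPM. The 75 cytosolic ribosomal protein genes with a symbol summed to 56633, 50087, 41307 and 50866 TPM, highest in piglet 5 and lowest in piglet 12. The 91 nuclear genes of oxidative phosphorylation summed to 13711 ± 1349 TPM, and the 61 translation factors to 10703 ± 334 TPM. Chaperones of the cytosol and endoplasmic reticulum reached 10816 ± 1302 TPM, led by HSP90AA1 at 1764 ± 149.5 TPM. Immediate early genes, which respond quickly to stimuli, were led by JUN with 242, 315, 283 and 342 TPM, and FOS, chosen after its values were seen, had 24.9 ± 3.75 TPM. Among imprinted and fetal growth genes, NNAT, a membrane protein of developing neurons named by position, had 378, 271, 247 and 250.1 TPM, and IGFBP2, which binds insulin-like growth factors, 161 ± 33.1 TPM.

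Genes of cells from beneath the epithelium were expressed, at levels that differed between animals. The fibroblast and stroma list summed to 3001, 3117, 1342 and 1497 TPM, so that piglets 5 and 9 stood well above piglets 12 and 23. COL1A1 and COL1A2, the chains of collagen I, had 539, 960, 274 and 244 TPM and 581, 722, 188 and 218 TPM. DCN, the proteoglycan decorin, was instead highest in piglet 5, with 479, 202, 167 and 240 TPM. The bone and cartilage list summed to 828, 957, 400.1 and 592 TPM. SPP1, osteopontin, made up 55.1% of it with 469, 449, 234 and 378 TPM, and COL2A1, the collagen of cartilage, had 62.5 ± 16.7 TPM. Pericytes and smooth muscle, by TAGLN and ACTA2, had a different order, with list sums of 626, 475, 366 and 626 TPM.

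Glial, vascular and blood cell genes were at lower levels. The list of glia, the ensheathing and Schwann cells around the axons, summed to 386, 220.4, 296 and 291 TPM, with all 13 measured members at 1 TPM or more in every library. ERBB3, a neuregulin receptor of Schwann cells, had 94.7, 36.8, 78.4 and 39.8 TPM, and GFAP, a glial filament, 39.01 ± 8.96 TPM. The endothelial list summed to 289, 164, 144 and 179 TPM, with PECAM1, the adhesion molecule CD31, at 56.0, 28.3, 26.1 and 30.5 TPM. In both of these lists piglet 5 was the highest. HBB, the beta chain of haemoglobin, had 265, 142, 112 and 378 TPM, highest in piglet 23. Macrophage genes summed to 125, 96.0, 62.8 and 82.3 TPM, led by CD68, a lysosomal marker, at 24.8 ± 4.81 TPM.

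Several other cell types were represented barely or by 1 gene. Of 12 lymphocyte genes, 2 were at 1 TPM or more in every library, and the T cell receptor component CD3E had 0.0610 TPM. CPA3, a mast cell protease, and LEP, the fat hormone leptin, had no read in any library. Of 8 skeletal muscle genes, ACTA1, the skeletal alpha-actin, had 78.7 ± 17.5 TPM, while the fast muscle troponin TNNI2 had 0.193 ± 0.144 TPM. Of 11 central nervous system genes, OLIG2, a bHLH factor of oligodendrocytes, had 60.2 ± 9.19 TPM, while GAD2 and TBR1, of inhibitory and excitatory neurons, had 1.22 ± 0.273 and 1.18 ± 0.307 TPM. Vomeronasal neurons could be judged from 4 markers only. Their G protein subunits GNAO1, named by position, and GNAI2, which are also expressed elsewhere, had 97.9 ± 14.3 and 44.9 ± 2.95 TPM.

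The biological coefficient of variation, estimated by edgeR without a group term, was 23.3% over 16050 genes. Among 10772 genes with a mean of 10 CPM or more, the median coefficient of variation between piglets was 11.8%. Counting error alone would give a median of 2.36%. It exceeded 50% in 205 of these genes and was under 5% in 968.

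The marker lists varied along different lines. Relative to the mean of 4, the mature neuron list stood at 72.4%, 98.6%, 122% and 107%, and the sustentacular list ordered the piglets alike. The endothelial list stood at 149%, 84.7%, 74.1% and 92.3%, and the stroma list at 134%, 139%, 59.9% and 66.8%. Piglet 5 was thus the lowest of 4 in the mature and immature neuron lists and the highest in endothelial, glial and macrophage markers, whereas piglet 12 was the highest in mature neurons and the lowest in stroma, bone and blood. Over the 24 lists, piglet 12 was the highest in 7 and the lowest in 10 (29.2% and 41.7%), and piglet 5 the highest in 8 and the lowest in 6 (33.3% and 25%). Over the 10772 genes with a mean of 10 CPM or more, piglet 12 was the highest in 22.8% and the lowest in 33.2%, and piglet 5 the highest in 31.8% and the lowest in 27.3%. Because TPM sums to a fixed total in each library, more of one cell type lowers the others. What moved the lists together was not tested.

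**Figure D5:**
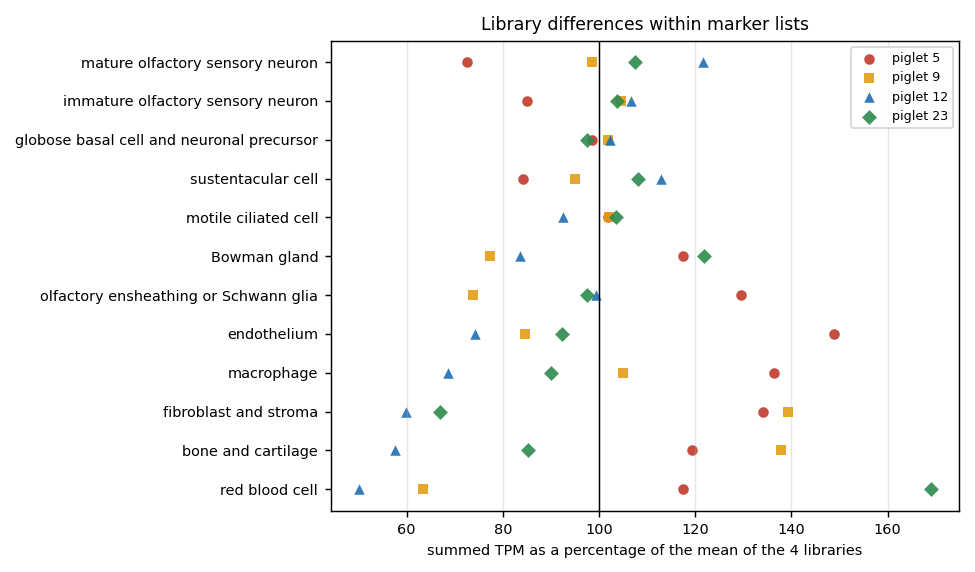
Summed TPM of 12 marker lists in each piglet as a percentage of the mean of the 4 libraries (100% line). Piglet 5 lies to the left for mature neurons (72.4%) and to the right for endothelium (149%), and piglets 12 and 23 lie to the left for stroma (59.9% and 66.8%).

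Most of the 12 most variable genes fell into sets that were high in a single animal. Ranking by the coefficient of variation over 4 libraries itself favours such genes. EIF1AY of the Y chromosome was also among the 12, and was counted in piglets 9 and 12. Piglet 9 stood out for genes of bone and its remodelling. IBSP, bone sialoprotein, had 1.96, 194, 3.89 and 6.75 TPM, from 48, 3692, 97 and 178 reads, and without piglet 9 its mean was 4.20 TPM in place of 51.7 TPM. ACP5, the acid phosphatase of osteoclasts, had 2.999, 41.1, 2.09 and 6.10 TPM. MMP9, a collagenase of osteoclasts and neutrophils, had 0.895, 18.7, 0.541 and 3.40 TPM. MMP13, a collagenase of cartilage and bone, had 56.1, 141, 11.7 and 30.4 TPM, and ASPN, a bone and cartilage proteoglycan, 11.99, 32.8, 3.62 and 8.69 TPM. SULT6B1, a sulfotransferase, had 6.997, 220, 26.0 and 48.2 TPM, which put it with this set although it is no bone gene. Without piglet 9 the means were 3.73 TPM for ACP5, 1.61 TPM for MMP9, 32.7 TPM for MMP13, 8.10 TPM for ASPN and 27.1 TPM for SULT6B1.

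Piglet 5 stood out for another set. MMP1, an interstitial collagenase whose model also covers MMP3, had 105, 16.9, 20.6 and 10.4 TPM. DMBT1, a mucosal defence glycoprotein named by position, had 120.01, 24.1, 7.03 and 28.4 TPM. FOXA1, a pioneer factor of glandular epithelium, had 18.1, 6.08, 2.39 and 3.11 TPM. PTX3, a pattern recognition protein made in inflamed tissue, had 82.7, 29.3, 11.5 and 18.4 TPM. Without piglet 5 the means were 15.97 TPM for MMP1, 19.8 TPM for DMBT1, 3.86 TPM for FOXA1 and 19.7 TPM for PTX3. With BPIFA1 these genes were lowest in piglet 12, except MMP1, which was lowest in piglet 23.

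The 8 least variable genes with a mean of 100 CPM or more have various roles. PCF11, which acts in transcription termination, had 197, 197, 199 and 196 CPM, a coefficient of variation of 0.534% that is below its counting error of 1.15%. ZRANB2, a splicing factor, and RAB11B, a GTPase of recycling endosomes, had coefficients of 0.768% and 0.924% on the CPM scale. PDCD6IP, named by position, ACTR10, CPSF6, CCDC47 and ERO1A made up the rest of the 8. Among so many genes a few come out this close by sampling, so the order within the 8 carries no weight.

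Genes of the Y chromosome divided the animals. EIF1AY, a translation factor on the Y chromosome, had 0, 1247, 1470 and 0 reads, and the demethylase gene KDM5D was counted in the same piglets, 9 and 12. Piglets 9 and 12 lay on opposite sides of the mean in the stroma list (139% and 59.9%) and on the same side in the red blood cell list (63.3% and 50.2%).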

How the data were processed

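RNA-seq read counts were taken as the authors deposited them, in a table with the layout of featureCounts output per the file headers, raw and not normalized. Per the submitters' processing notes the tools were DESeq2, HTSeq, FastQC, Subread (1.5.0-p3), featureCounts and STAR (2.4.0), with no role given. The genome build and strand setting are not given in the sources used here, so overlapping and antisense genes are uncertain. The deposited exon lengths were used for TPM.

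Only the 25880 pig genes entered totals. Control identifiers (100) had 0 reads, and 5888 identifiers on an extra sequence were left out. Symbols came from a gene name table (14857 identifiers) or from position, by 50% reciprocal overlap with a RefSeq gene of assembly Sscrofa11.1 (1329) or by lying 90% inside one (3). Where tested on 12589 known genes, position gave the right symbol for 94.6%. No symbol was found for 9691.

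CPM, TPM, sums, mean ± SD and coefficients of variation were computed with pandas 2.3.3 in Python 3.11.15. The biological coefficient of variation came from edgeR 4.0.16 in R 4.3.3 (TMM, default filter, intercept only), tested on simulated data. Size factors of DESeq2 1.42.0 and TMM served as alternatives. No group was compared, and no p-value is given. Named genes were the 25 highest by CPM and by TPM, up to 5 per list or family with the highest TPM, defining markers at 0, the 12 most variable with a mean of at least 10 CPM and the 8 least variable of at least 100 CPM. A few genes that the rule takes are not reported here by name. Genes outside that rule are marked, apart from list markers near 0. The members and lists were chosen with earlier results of these data known.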

Additional observations from a re-analysis of the deposited data

Results flagged for a closer look

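Of 332 values compared across the 4 piglets, 23 (6.93%) had 1 piglet apart from the rest. Its gap to its nearest neighbour, as a share of the whole range, exceeded Dixon's critical value. The nominal rate of about 1 in 20 cannot be set against this share. The values include genes chosen as the most or least variable in these same piglets, and sums beside their own members. Piglet 5 was the one apart in 10 of the 23, by a higher value in 5 and by a lower one in 5.

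Piglet 5 was apart on the low side in the immature neuron list (6675 TPM), UCHL1 (646 TPM), CNGA4 (118 TPM), MUC2 (111 TPM) and the olfactory receptor gene OR4E1 (5.85 TPM). It was apart on the high side in the endothelial genes PECAM1 (56.0 TPM) and CDH5 (50.3 TPM), in AQP1 (537 TPM), in MMP1 (105 TPM) and in MUC5AC (24.3 TPM).

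Piglet 9 was apart on the high side in IBSP (194 TPM), ACP5 (41.1 TPM), MMP9 (18.7 TPM), AQP5 (150.3 TPM) and the number of genes at 100 TPM or more (1740.0). Piglet 12 was apart on the high side in SCN9A (176 TPM) and CYP4V2 (194 TPM), and on the low side in the motile ciliated list (600.5 TPM) and GNAI2 (40.5 TPM). Piglet 23 was apart on the high side in SOD1 (1586 TPM) and the haemoglobin gene HBM (3.10 TPM), and on the low side in ALOX5AP (14.4 TPM) and ZRANB2 (249 TPM), where the 4 values span only a few percent.

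Identifiers on the extra sequence, whose origin is not stated, were counted in every library, with 127, 94, 354 and 247 reads.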

How the results depend on the processing

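With mitochondrially encoded genes out of the total, every other TPM value grows by the same factor within a library, and 11 list sums and 18 family sums moved by more than their SD. In TPM the lists became immature olfactory sensory neuron 9220.1, globose basal cell and neuronal precursor 1380.2, horizontal basal cell 344, sustentacular cell 5543, tuft or microvillous cell 57.5, ionocyte 436, motile ciliated cell 762, goblet or secretory airway cell 696, vomeronasal neuron 214, lymphocyte 15.2, central nervous system 80.6. The families became mitochondrially encoded 171910.0, cytosolic ribosomal protein 58324, nuclear oxidative phosphorylation 16079, translation factor 12558, tubulin and actin 8831, heat shock and ER chaperone 12684, mucin 274, cytochrome P450 5034, conjugation and aldehyde or alcohol oxidation 7838, antioxidant and metallothionein 10634, other chemoreceptor 38.96, chloride and bicarbonate route 1454, sodium and calcium channel 1906, gap and tight junction 1437, S100 2803, transcription factors 8790.3, imprinted or fetal growth 841, immediate early and heat shock response 1492. The share of reads in the 100 highest genes was then 14.2%, and 102 of 260 named genes moved.

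With symbols from the name table alone, fewer members counted, and 3 lists and 9 families moved. The lists became globose basal cell and neuronal precursor 1049, motile ciliated cell 612, vomeronasal neuron 84.4. The families became cytosolic ribosomal protein 36124, nuclear oxidative phosphorylation 11312, translation factor 9009, mucin 169.8, conjugation and aldehyde or alcohol oxidation 5922, antioxidant and metallothionein 8328, S100 1765, imprinted or fetal growth 389, immediate early and heat shock response 995. Leaving gene models under 200 bases out of the total, chosen after seeing the data, moved the precursor list to 1205 TPM, the mucins to 239 TPM and 8 named genes.

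On TPM in place of reads, the 100 highest genes held 31.0% and 613 genes held 50%. The biological coefficient of variation was 26.7% without the filter and 18.95% at a mean of 10 CPM or more, with fewer genes. TMM and DESeq2 size factors moved no list, family or gene mean over the 4 libraries by more than 1 SD. Such factors raise some libraries and lower others (TMM 0.986 to 1.017), so these means could hardly move. Differences between piglets were not compared under these scalings. Leaving out each library in turn moved the mean of 24 of 260 named genes and of 1 family, the Y-linked genes (12.2 TPM without piglet 9), by over 1.5 times, and that of no marker list. The coefficient was then 20.6% to 25.1%, lowest without piglet 5.

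The planned search for motifs in promoters was not run. No paired analysis was possible because 1 group is described and the groups of the study share no replicate number. With 30836904 reads or more per library, depth limits only genes near 0.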

Other observations

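Among the genes that no list or rank above takes up, several neuronal genes stood among the first 50 by CPM, and they were chosen after their values were seen. CHGA, chromogranin A of secretory granules, had 1026, 1564, 1498 and 1616 TPM. NSG1, an endosomal protein of neurons, had 1461, 1988, 2138 and 2228 TPM, and the RefSeq gene at its place has no proper symbol (LOC100621607). PLEKHB1, a membrane protein of sensory cells, had 1247, 1718, 1782 and 1898 TPM. In all 3 piglet 5 was the lowest, as in the mature neuron list. The general genes ENO1 and PKM were also lowest there. Over the 10772 genes with a mean of 10 CPM or more, piglet 5 was the lowest in 27.3%.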
